A study of Mus musculus with 6 samples.

Results

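Ribosomal protein genes encode the proteins that, together with ribosomal RNA, build the large and small subunits of the cytosolic ribosome. They were taken here from the deposited count table by name: a row entered when it was annotated as protein coding and its symbol began with Rpl or Rps and a digit, or with Rplp. Pseudogene symbols containing -ps and the Rps6k kinases were left out. The rule found 85 of the 54532 rows, 52 with large-subunit names and 33 with small-subunit names, spread over 19 chromosomes, of which chromosome 7 held 14. Ribosomal proteins without such a name, among them Rpsa, Fau and Rack1, were described separately. A gene can be taken by the rule without encoding a structural ribosomal protein. An example is Rps19bp1, which encodes a protein that binds the small-subunit protein Rps19.

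Each ribosome needs its proteins in matched amounts, and in growing cells their genes are among the most highly transcribed. Many of their mRNAs begin with a cytosine followed by a run of pyrimidines, the 5′ terminal oligopyrimidine tract, through which the kinase complex mTORC1 and the RNA-binding protein Larp1 control their translation. Such control acts on translation, and mRNA abundance, the quantity measured here, need not follow it. In the brain, ribosomal protein mRNAs are made by all cell types and are also carried into dendrites and axons.

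Polyadenylated RNA from the cerebral cortex of 5XFAD mice was sequenced in 6 libraries. 5XFAD mice carry mutant human transgenes of familial Alzheimer's disease, driven by Thy1 promoter elements, and all 6 libraries came from this genotype, so no group without amyloid pathology was compared. The 3 control libraries were labelled NC and came from mice given no cells, and the 3 cell-treated ones from mice transplanted with GABAergic interneurons, inhibitory neurons here derived from human induced pluripotent stem cells. Age, the time after transplantation, and whether controls had a sham injection are not given in the sources used here. The design text swaps the words control and experimental, so the titles and the treatment label decided the groups. The count columns of the controls are named for the disease and were matched to the control titles by inference, on which the sign of every difference depends. The design text speaks of biological replicates, and all libraries shared 1 batch label.

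Total counts ran from 14221519 to 16696463 per library. Cell-treated library 3 stood apart, with a mean Pearson correlation across genes of 0.936 with the other libraries, against 0.963 to 0.968 for each of these. Markers of several cell types and regions also moved between libraries. Summed astrocyte markers (9 genes) were between 4001 and 7144 CPM (counts scaled to the size of the library) in 5 libraries and 1182 in cell-treated library 3. Summed oligodendrocyte markers (8 genes) were also lowest there, at 3003 CPM against 4778 to 8544. Summed microglia markers (10 genes) were highest there, at 1978 CPM against 777 to 1298. All 8 striatal markers tested had lower means in cell-treated libraries, with 6 at an unadjusted p under 0.05, and control library 3 had the highest striatal sum, 1799 CPM against 337 to 715. Olfactory bulb markers summed to 338 CPM in cell-treated library 1 and to between 7.43 and 40.1 in the others, with all 5 tested having higher means in treated libraries and 2 an unadjusted p under 0.05. All 5 erythroid markers tested were higher in every cell-treated than in every control library, as were 4.30% of all genes tested. At an unadjusted p under 0.05, 1.06% of all genes tested were lower and 0.939% higher. No marker passed an adjusted p of 0.05. Defining markers of cortical excitatory neurons were present in all libraries, with sums from 3242 to 5514 CPM. No marker in these lists was at 0 in all libraries. The part of these differences in the ribosomal protein values was not tested. In bulk tissue, fewer cells of a type and less RNA per cell cannot be told apart.

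The start regions of 6 members, taken from RefSeq promoters on GRCm38.p6, are shown because they carry the tract that defines this class of mRNA. They run 5′ to 3′ on the strand of the gene from 50 bases before the annotated start to 20 bases from it. Capitals mark the unbroken pyrimidine run that begins with C at the start.
Rps21, chr2:180257329-180257398, plus strand: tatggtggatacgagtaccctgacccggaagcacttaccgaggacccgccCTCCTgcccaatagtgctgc
Rps15a, chr7:118116128-118116197, minus strand: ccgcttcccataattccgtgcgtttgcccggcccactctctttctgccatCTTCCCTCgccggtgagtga
Rps27, chr3:90213629-90213698, minus strand: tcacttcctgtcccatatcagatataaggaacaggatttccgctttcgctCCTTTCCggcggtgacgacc
Rpl15, chr14:18270967-18271036, minus strand: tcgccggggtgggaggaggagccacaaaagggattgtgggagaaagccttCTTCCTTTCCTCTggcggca
Rplp2, chr7:141447601-141447670, plus strand: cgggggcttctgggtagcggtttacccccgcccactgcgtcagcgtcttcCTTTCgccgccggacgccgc
Rps27rt, chr9:114982720-114982789, minus strand: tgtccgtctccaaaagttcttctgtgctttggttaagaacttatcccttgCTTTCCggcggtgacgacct
The runs were 5 bases long in Rps21 and Rplp2, 6 in Rps27rt, 7 in Rps27, 8 in Rps15a and 13 in Rpl15.

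RefSeq promoters were matched to 65 of the 85 members. A C at the start followed by at least 4 pyrimidines was found in 14 of these 65 (21.5%), 7 with large-subunit and 7 with small-subunit names, against 366 of 12070 tested genes with a promoter in the same table (3.03%). Annotated starts can lie a few bases from the start in use. When the tract could lie anywhere in a window from 5 bases before the start to 10 after it, the shares were 46.2% and 23.8%. The letters CCGGAAG, searched on both strands over the 300 bases of each promoter, were present in 38.5% of the members' promoters and 17.5% of all. AAGATGGCG, searched in the same way, was present in 6.15% and 3.06%. TATAAA between 40 and 15 bases before the start, on the strand of the gene, was present in 1 member, Rpl22l1, a share of 1.54% against 1.46%. These are counts of letters and say nothing about which factor binds.

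Levels between genes were compared in the authors' FPKM, which divide by gene length. The members were mostly abundant: 34 of 85 had a mean over the 6 libraries of at least 100 FPKM, 44 lay between 10 and 100, and 7 were under 10. The median was 75.8 FPKM for large-subunit and 93.3 FPKM for small-subunit names. Rplp1, an acidic protein of the stalk of the large subunit that recruits elongation factors, was the highest at 755 ± 165 FPKM (SD, n = 6). Rps3a1 and Rps15, both of the small subunit, followed at 459 ± 53 and 398 ± 101 FPKM. The next highest were Rpl4, Rpl19, Rpl41, Rps14, Rpl8, Rps21 and Rpl36, from 267 FPKM for Rpl4 down to 194 for Rpl36. The order of the members was similar in every library, with Spearman's rho between libraries, across genes, from 0.883 to 0.992. The deposited length equalled the union of a gene's exons in GENCODE M21 for 81 of the 85 members, Rps14 and Rpl17 being among the exceptions. It reaches 6270 bases for Rps15a, so FPKM of genes with long retained-intron transcripts are low relative to their short mature mRNA.

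The 85 genes together took 1.52%, 1.44% and 1.25% of all counts in controls 1, 2 and 3, and 1.15%, 1.25% and 1.81% in treated libraries 1, 2 and 3. The group means were 1.40% ± 0.141 in controls and 1.40% ± 0.356 in treated ones (SD, n = 3 each). Cell-treated library 3 had the highest share and cell-treated library 1 the lowest, so the control values lie inside the range of the treated ones. Large-subunit names took 0.906%, 0.865% and 0.753% in the controls and 0.684%, 0.750% and 1.08% in the treated libraries. Small-subunit names took 0.616%, 0.579% and 0.494%, then 0.463%, 0.502% and 0.731%. The ratio of large to small hardly moved, from 1.47 in control library 1 to 1.52 in control library 3, with the other libraries between. The share of genes encoded in the mitochondrial genome was 1.95% in control library 3, 7.27% and 8.78% in controls 1 and 2, and 4.49% to 6.80% in treated libraries. As a share of non-mitochondrial protein-coding counts, the 85 genes took 1.69%, 1.63% and 1.30% in the controls and 1.23%, 1.38% and 1.96% in the treated libraries, with the same highest and lowest library.

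**Figure D1:**
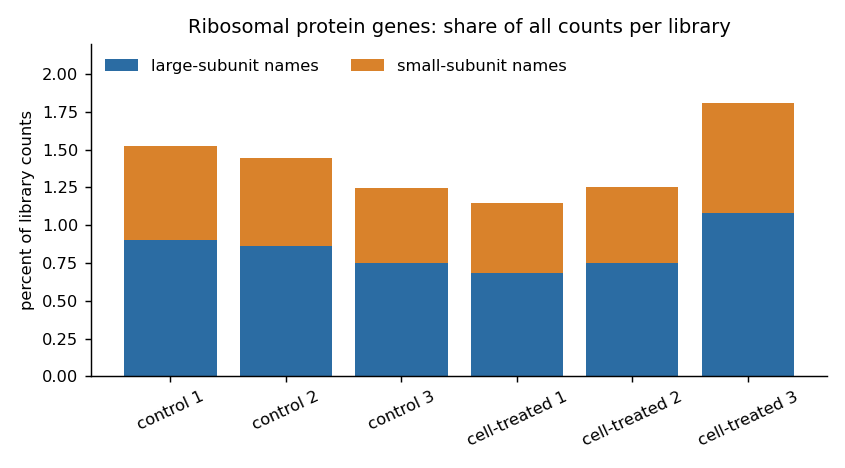
Percent of all counts in each library (y axis) taken by large-subunit names (lower bar) and small-subunit names (upper bar) of the 85 ribosomal protein genes, for 3 control and 3 cell-treated libraries. Cell-treated library 3 reaches 1.81% and cell-treated library 1 stands at 1.15%, with the controls from 1.25% to 1.52%.

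The question put by the design is whether expression differed between cell-treated and control cortex. For ribosomal protein genes no member passed the test. Of the 85 genes, 81 had enough counts to be tested by edgeR's quasi-likelihood test with Benjamini-Hochberg adjustment over all 17042 genes tested, and 0 of 81 passed an adjusted p of 0.05. The share over all genes tested was 0%. Nor did any member (0 of 81) have an unadjusted p under 0.05, against 0.939% of all genes tested higher and 1.06% lower. DESeq2 called 0 members as well, and 0.0647% of the 17009 genes to which it gave an adjusted p. The log2 fold change (cell-treated minus control) was above 0 for 41 members and below 0 for 40, with a median of 0.0026 against 0.0013 over all genes tested. It ran from -0.58 for Rpl24 to 0.38 for Rps27l, and was smaller than its standard error for 75 of the 81. Large-subunit names had 22 above and 26 below 0 with a median of -0.0077, and small-subunit names 19 above and 14 below with a median of 0.053. In 1 of 81 members, Rpl7l1, did the 3 treated libraries lie apart from the 3 controls, all higher; over all genes tested 8.60% had groups that did not overlap, 4.30% in each direction.

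Beneath the similar group averages, libraries of the same group differed from each other. For each gene, log2 CPM was set against its mean over the 6 libraries. The median of these deviations over the 81 tested members was 0.154, 0.044 and -0.141 in controls 1, 2 and 3, and -0.318, -0.109 and 0.438 in treated libraries 1, 2 and 3. The same median over all genes tested stayed between -0.0150 and 0.0157. For the lists described below, in cell-treated library 3, it was 0.578 for ribosomal proteins with other names and 0.485 for initiation factors. Other tract mRNAs were at 0.413, nuclear oxidative phosphorylation genes at 0.382 and mitochondrial ribosomal protein genes at 0.312. Assembly factors were at 0.128, mTOR and Larp1 pathway genes at 0.109 and p53 targets at -0.012. Cell-treated library 3 held the highest value of 69 of the 81 members (85.2%), against 28.7% of all genes tested. Cell-treated library 1 held the lowest value of 44 (54.3%, against 12.8% of all), and control library 3 the lowest of 24 (29.6%, against 16.7%). Cell-treated library 3 was highest for 43 of 48 large-subunit and 26 of 33 small-subunit names. The spread of single members over the 6 libraries had a median SD of 0.308 in log2 CPM, beside 0.337 over all genes tested. The members were mostly abundant and were not matched to other genes for abundance, so these values do not show whether their spread is usual.

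**Figure D2:**
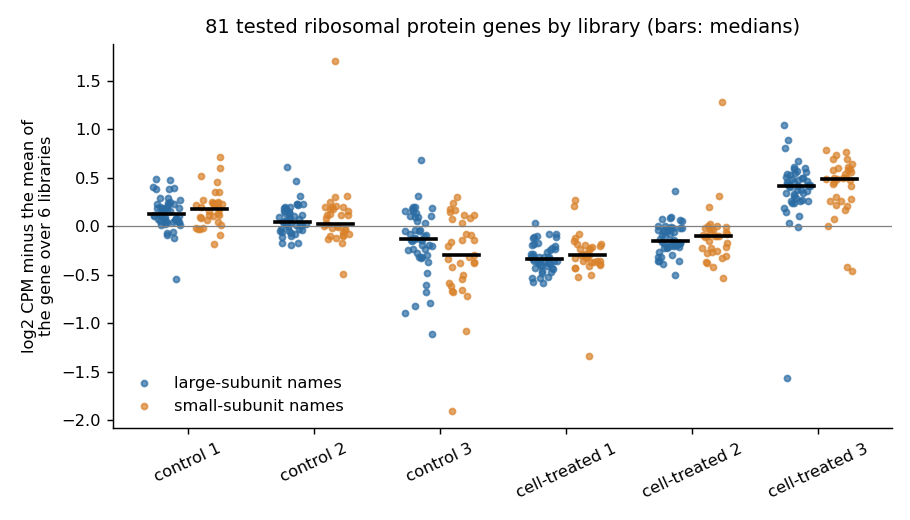
Log2 CPM of each of the 81 tested members minus the mean of that gene over the 6 libraries (y axis), by library, with large-subunit names left and small-subunit names right in each pair and black bars at their medians. Most points of cell-treated library 3 lie above 0 and most of cell-treated library 1 below, and control library 3 is the most scattered.

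Without cell-treated library 3, the median log2 fold change became -0.25, against -0.018 over all genes, and 77 of 81 members lay below 0 (47 of 48 large-subunit and 30 of 33 small-subunit names). Cell-treated libraries 1 and 2 were both below every control for 32 of 81 members (39.5%, against 11.1% of all genes tested) and above every control for 2, Rpl7l1 and Rps10, against 11.3% of all genes. In this fit 12 members were lower at an unadjusted p under 0.05, against 2.34% of all genes tested, and 0 passed the adjusted threshold, the smallest adjusted p of edgeR's quasi-likelihood test being 0.914. The 12 were Rpl36, Rps2, Rpl11, Rpl18, Rpl41, Rps27a, Rplp2, Rpl35a, Rps9, Rpl23, Rpl38 and Rpl37a. Their log2 fold changes ran from -0.60 ± 0.21 (SE) for Rps27a to -0.35 ± 0.15 for Rpl37a. With control library 3 also left out, the median was -0.33 and 78 members lay below 0. Then 34 of 81 were lower at an unadjusted p under 0.05, against 4.44% of all genes, and again 0 passed after adjustment. This pair was chosen with earlier results known. Cell-treated library 3 held the highest value of 69 of the 81 members, and control library 3 had the lowest member median of the controls. Leaving them out lowers the fold changes of most members by construction. The counts of lower members without these libraries are therefore description only, and the members are not separate replicates. Libraries 1 and 2 of the treated group were both below libraries 1 and 2 of the controls for 67 members (82.7%, against 21.7% of all genes). Leaving out any other single library gave medians from -0.058 to 0.14.

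**Figure D3:**
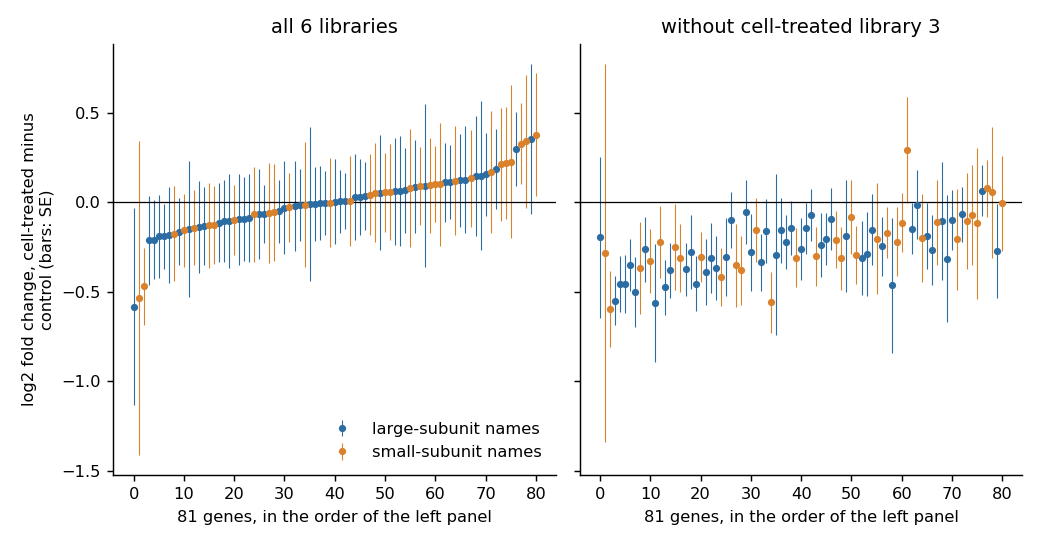
Log2 fold change, cell-treated minus control, of the 81 tested members with its standard error (y axis), ordered by the fit to all 6 libraries (left panel), and in the same gene order without cell-treated library 3 (right panel). With all libraries 41 genes lie above and 40 below 0, and without cell-treated library 3 77 lie below.

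The stalk of the large subunit is formed by Rplp0, which anchors it to the ribosomal RNA, and the acidic proteins Rplp1 and Rplp2, which bind translation factors. Rplp0 (chr5:115559467-115563727, plus strand) was at 275, 237 and 154 CPM in controls 1, 2 and 3 and at 162, 207 and 482 CPM in treated libraries 1, 2 and 3. Cell-treated library 3 was the highest by far, at 2.62 times the mean of cell-treated libraries 1 and 2, the largest such ratio of all tested members. The group means were 222 ± 62.1 and 283 ± 173 CPM (SD, n = 3 each), with a log2 fold change of 0.35 ± 0.42 (SE). Rplp1 was at 426, 406 and 337 CPM in controls and 280, 316 and 499 CPM in treated libraries. Its log2 fold change was -0.09 ± 0.25. Rplp2 was at 109, 102 and 131 CPM in controls and 82.1, 84.1 and 133 CPM in treated libraries, a log2 fold change of -0.19 ± 0.23. For Rplp1 and Rplp2 the first pair of treated libraries lay below all controls and cell-treated library 3 above them, so the groups overlapped. The 3 stalk genes thus had log2 fold changes of differing sign, none past the test.

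Among the other large-subunit genes, Rpl5 and Rpl11 encode proteins that bind the 5S ribosomal RNA and, when ribosome assembly is disturbed, inhibit Mdm2, the ligase that degrades p53. Rpl5 was at 306, 285 and 224 CPM in controls and 247, 292 and 344 CPM in treated libraries. Rpl11 was at 223, 206 and 237 CPM in controls and 161, 158 and 285 CPM in treated libraries. The log2 fold changes were 0.12 ± 0.21 for Rpl5 and -0.14 ± 0.26 for Rpl11, and in both genes the ranges of the groups overlapped. Of 11 p53 target genes tested, 6 were above and 5 below 0 with a median log2 fold change of 0.03, and 0 passed the test.

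Rpl10, placed late in assembly near the catalytic centre, was at 232, 241 and 185 CPM in controls and 175, 197 and 300 CPM in treated libraries. Rpl10a, the large-subunit protein used in mice as a tagged bait to isolate ribosomes of chosen cells, was at 160, 154 and 143 CPM in controls and 135, 140 and 218 CPM in treated libraries. Rpl38, a protein whose loss in mice alters skeletal patterning and Hox mRNA translation, was at 81.5, 76.0 and 69.5 CPM in controls and 53.9, 62.5 and 90.6 CPM in treated libraries. In Rpl10a and Rpl38 the treated libraries 1 and 2 were below every control and library 3 above. Rpl13a, which in human monocytes can leave the ribosome to silence inflammatory mRNAs, had lower values than these, with a mean of 9.64 FPKM. It stood at 19.3, 23.1 and 19.0 CPM in controls and 17.1, 19.7 and 24.3 CPM in treated libraries. In GENCODE M21, 35.4% of its exon bases overlapped other genes, and 29.4% overlapped Gm45713 on the same strand. Its level is therefore uncertain. Log2 fold changes of these 4 genes were between -0.13 for Rpl38 and 0.11 for Rpl10a.

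The members of smallest p with a lower value were led by Rps27a, which encodes a fusion of ubiquitin and a small-subunit protein. It was at 113, 72.3 and 80.5 CPM in controls and 57.9, 59.4 and 74.8 CPM in treated libraries. Cell-treated library 3 overlapped the controls, and the log2 fold change was -0.47 ± 0.22 (SE) with an adjusted p of 0.999 in edgeR's quasi-likelihood test. Among large-subunit genes, Rpl36 was at 82.4, 78.8 and 78.7 CPM in controls and 52.7, 56.7 and 97.7 CPM in treated libraries. Its controls lay close together, cell-treated libraries 1 and 2 below them and library 3 above, and the log2 fold change was -0.21 ± 0.25. Rpl41, which encodes the smallest ribosomal protein, was at 307, 273 and 300 CPM in controls and 217, 211 and 334 CPM in treated libraries, with the same arrangement and a log2 fold change of -0.21 ± 0.22. Rpl37a, Rpl36a and Rps14 had log2 fold changes of -0.19, -0.16 and -0.16, and Rplp2, described with the stalk, belongs to the same set. Rpl24 had the second smallest p of the set and the lowest log2 fold change, -0.58 ± 0.55, at the low counts described below with the overlapping genes.

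Members of smallest p with a higher value included Rps15a, a small-subunit protein, at 152, 138 and 119 CPM in controls and 143, 145 and 226 CPM in treated libraries. Libraries 1 and 2 of the treated group lay inside the control range, and library 3 above it. Its log2 fold change was 0.33 ± 0.23. Rpl15, a core protein of the large subunit, was at 140, 135 and 158 CPM in controls and 144, 132 and 217 CPM in treated libraries, with a log2 fold change of 0.18 ± 0.22. Rps25, used by some viral mRNAs that recruit ribosomes internally, was at 216, 193 and 113 CPM in controls and 148, 184 and 277 CPM in treated libraries. Here control library 3 was the lowest and cell-treated library 3 the highest, and the log2 fold change was 0.22 ± 0.31. Rps7 showed the same extremes, with 145 CPM in control library 3 and 356 CPM in cell-treated library 3, and a log2 fold change of 0.21 ± 0.32.

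Small-subunit genes with well-known roles outside assembly or in disease also overlapped between groups. Rps6, the ribosomal protein phosphorylated by S6 kinase downstream of mTORC1, was at 308, 280 and 323 CPM in controls and 233, 258 and 418 CPM in treated libraries. Its log2 fold change was -0.0035 ± 0.25. Rps19, mutated in Diamond-Blackfan anaemia in humans, was at 154, 151 and 107 CPM in controls and 105, 106 and 185 CPM in treated libraries, a log2 fold change of -0.06 ± 0.27. Rps2 was at 294, 299 and 354 CPM in controls and 222, 207 and 509 CPM in treated libraries, so that cell-treated libraries 1 and 2 lay below and library 3 above every control.

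The most steady members over the 6 libraries, by the SD of log2 CPM, were Rpl22, Rpl21, Rpl4, Rpl27a and Rps3a1. Rpl22, a large-subunit protein that also binds other RNAs and is tagged in the RiboTag mouse, was at 131, 117 and 120 CPM in controls and 113, 121 and 136 CPM in treated libraries. Its log2 fold change was 0.0067 ± 0.16. Among the most variable were Rps27rt, Rpl27, Rpl31 and Rpl24. Rpl31 was at 247, 243 and 81.6 CPM in controls and 126, 185 and 257 CPM in treated libraries. Rpl27 was at 124, 111 and 47.7 CPM in controls and 59.7, 76.9 and 164 CPM in treated libraries. In Rpl31 and Rpl27 control library 3 was the lowest and cell-treated library 3 the highest.

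The libraries numbered 3 were set against the other libraries of their own groups. Cell-treated library 3 exceeded the mean of cell-treated libraries 1 and 2 for 78 of 81 members, with a median ratio of 1.58 and 53 members above 1.5 (65.4%, against 18.4% of all genes tested). The 3 exceptions were Rps10, Rps27rt and Rpl24, with ratios of 0.624, 0.512 and 0.293. Control library 3 was below the mean of control libraries 1 and 2 for 60 members, with a median ratio of 0.836, and the ratio ran from 0.109 for Rps27rt to 1.85 for Rpl7a. Below a ratio of 0.6 lay 11 members (13.6%, against 12% of all genes), among them Rpl31 (0.333), Rpl27 (0.407), Rpl32 (0.455) and Rpl9 (0.482). The 14 members with a pyrimidine tract at the start and the 47 other tested members with a promoter had median ratios of 1.59 and 1.59 for cell-treated library 3, and of 0.775 and 0.841 for control library 3. Their median log2 fold changes were 0.028 and 0.0070. The 47 others may not all be free of a tract, since 30 of 65 members had such letters in the wider window around the start. So had 23.8% of all tested genes with a promoter. These medians therefore cannot show whether the tract matters.

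**Figure D4:**
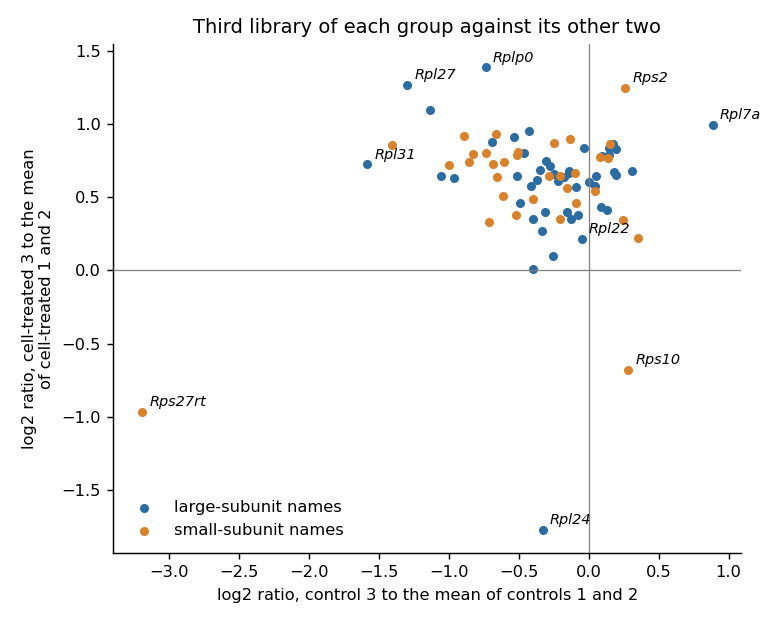
Each point is 1 of the 81 tested members, with the log2 ratio of control library 3 to the mean of control libraries 1 and 2 (x axis) and of cell-treated library 3 to the mean of cell-treated libraries 1 and 2 (y axis). The y values are above 0 for 78 members, whereas the x values spread to both sides, with 60 below 0.

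Several members have a paralog, a related gene. Some paralogs, though not all, can take the place of the usual protein in some tissues. Rpl7l1, related to Rpl7, was at 35.8, 33.8 and 34.8 CPM in controls and 36.2, 36.7 and 55.4 CPM in treated libraries. The groups did not overlap, but libraries 1 and 2 of the treated group exceeded the highest control by under 1 CPM, and the log2 fold change was 0.30 ± 0.21 (SE) with an adjusted p of 0.999 in edgeR's quasi-likelihood test. Rpl22l1, the paralog of Rpl22, was at 38.6, 32.4 and 37.9 CPM in controls and 27.6, 36.2 and 54.9 CPM in treated libraries, a log2 fold change of 0.12 ± 0.26. Rps27l, a p53-responsive paralog of Rps27, was at 11.5, 10.2 and 6.84 CPM in controls and 9.22, 9.73 and 18.1 CPM in treated libraries, a log2 fold change of 0.38 ± 0.34. Rps19bp1 was at 12.8, 13.5 and 16.8 CPM in controls and 12, 12.7 and 14.4 CPM in treated libraries.

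A further 4 paralogs had few counts or none. Rpl39l had between 0 and 6 counts per library and Rpl3l, the heart and skeletal muscle form of Rpl3, between 1 and 7. Rpl36al had between 3 and 15 counts, and 24.5% of its exon bases overlapped Gm49383 on the same strand, so its level is uncertain. Rpl10l, the testis form of Rpl10, had 0 counts in all 6 libraries. These 4 genes were not tested. On the FPKM scale Rpl3l had a mean of 0.168 over the 6 libraries and Rpl3, the usual form, 174. Rpl3 itself was at 553 ± 30.8 CPM in controls and 554 ± 161 CPM in treated libraries (SD, n = 3 each).

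Rps27rt, the most variable member, is a single-exon copy of Rps27. The coding sequence of Rps27 (gene at chr3:90212522-90213651, minus strand, GRCm38, GENCODE M21) was identical to that of Rps27rt (chr9:114982366-114982739, minus strand) over all 255 bases, whereas that of Rps27l (chr9:66946086-66949516, plus strand) differed at 61 bases. The sequences are shown because they bear on which reads can be assigned to a gene, and capitals in Rps27l mark the bases that differ from Rps27.
Rps27 and Rps27rt coding sequence: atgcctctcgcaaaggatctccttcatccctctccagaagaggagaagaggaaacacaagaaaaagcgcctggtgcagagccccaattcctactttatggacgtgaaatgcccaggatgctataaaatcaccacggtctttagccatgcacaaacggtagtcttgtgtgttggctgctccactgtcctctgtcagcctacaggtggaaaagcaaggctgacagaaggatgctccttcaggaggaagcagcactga
Rps27l coding sequence: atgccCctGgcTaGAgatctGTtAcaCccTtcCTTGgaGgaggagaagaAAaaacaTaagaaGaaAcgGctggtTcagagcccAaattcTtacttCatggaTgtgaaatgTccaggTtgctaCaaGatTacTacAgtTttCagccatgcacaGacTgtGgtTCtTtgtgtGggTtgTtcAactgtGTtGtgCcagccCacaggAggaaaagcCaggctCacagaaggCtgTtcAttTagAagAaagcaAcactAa
The longest run shared by Rps27 and Rps27l without a difference was 11 bases, at an identity of 76.1%. The identity of Rps27 and Rps27rt also covered the start of the transcript: in the start regions shown above, 19 bases in a row were the same, from base 2 of Rps27 and base 1 of Rps27rt, while 13 of the 50 bases before the start were the same at the same distance.

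Rps27 was at 104, 51.7 and 48.5 CPM in controls and 87.5, 54.3 and 117 CPM in treated libraries. Rps27rt was at 54.5, 108 and 8.88 CPM in controls and 13.2, 80.9 and 24.1 CPM in treated libraries, a 12.1-fold range. The copy took 34.3%, 67.6% and 15.5% of the pair's counts in the controls and 13.1%, 59.8% and 17% in the treated libraries. Control library 2 and cell-treated library 2 gave most of the pair's counts to the copy and the other 4 libraries most to Rps27. The sum of the pair was 159, 160 and 57.4 CPM in controls and 101, 135 and 141 CPM in treated libraries, a 2.78-fold range. Since the coding sequences are the same, counts of the 2 genes cannot be told apart with certainty, and the log2 fold changes of 0.34 ± 0.37 for Rps27 and -0.54 ± 0.88 for Rps27rt are uncertain.

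**Figure D5:**
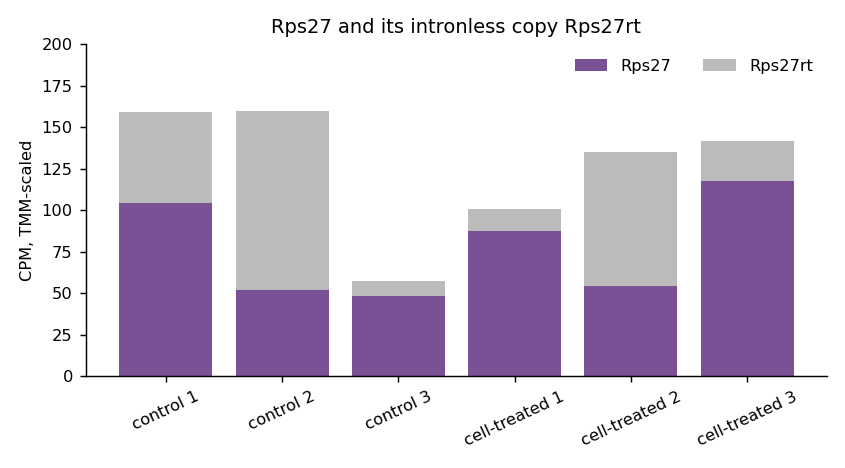
TMM-scaled CPM (y axis) of Rps27 and of its single-exon copy Rps27rt, stacked, in the 3 control and 3 cell-treated libraries. Rps27rt takes 67.6% and 59.8% of the pair in control library 2 and cell-treated library 2, and the sum is lowest in control library 3, at 57.4 CPM.

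Other members also share sequence with other rows. Processed pseudogenes are numerous in this family, with 289 rows of ribosomal protein names marked -ps, 287 of them named after 59 of the members. Rps10 had 2.49, 2.66 and 3.13 CPM in controls and 3.26, 3.51 and 2.11 CPM in treated libraries, and 92.8% of the counts under its name stood in pseudogene rows. The share was 76.9% for Rpl17, 53.6% for Rpl21, 41.7% for Rps12 and 23.4% for Rpl7a. Rpl24 was at 0.967, 1.12 and 0.831 CPM in controls and 0.753, 0.946 and 0.249 CPM in treated libraries, and its mean of 0.784 FPKM was the lowest of the tested members. In GENCODE M21, 47.0% of its exon bases overlapped Gm28037 on the same strand. For Rps10, 28.7% of exon bases overlapped other genes, and 20.6% overlapped RPS10-NUDT3 on the same strand. Rpl35 overlapped Wdr38 on the opposite strand over 66.2% of its exon bases. For Rpl23a, 62.3% of exon bases overlapped other genes, and 59.7% overlapped Tlcd1 on the opposite strand. By contrast, 47 members overlapped no exon of another gene. The levels of Rps10, Rpl17, Rpl21 and Rpl24 are therefore uncertain, as are those of members with smaller shares to a lesser degree.

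Of 4 tested ribosomal proteins with other names, 1 was above and 3 below 0, with a median log2 fold change of -0.10 that became -0.37 without cell-treated library 3. The log2 fold change was 0.23 for Rack1, a signalling scaffold on the small subunit, -0.11 for Fau, which is made as a fusion with a ubiquitin-like protein, and -0.09 for Rpsa, which is also known as the laminin receptor. Fau was at 240, 201 and 193 CPM in controls and 139, 169 and 278 CPM in treated libraries. Cell-treated libraries 1 and 2 lay below every control and library 3 above.

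Other mRNAs known for a pyrimidine tract, such as those of elongation factors and the poly(A)-binding protein, were above 0 in 15 and below 0 in 2 of 17 genes, with a median log2 fold change of 0.12. Pabpc1 was at 257, 249 and 192 CPM in controls and 236, 230 and 429 CPM in treated libraries, and without cell-treated library 3 the median of the list was -0.09. Of 31 initiation factor genes, 28 were above and 3 below 0, with a median of 0.18 that became 0.016 without cell-treated library 3. Eif2s3x, a subunit of the factor that brings the initiator tRNA, was at 80.3, 70.4 and 72.6 CPM in controls and 89.9, 85.6 and 126 CPM in treated libraries, so its groups did not overlap. Its log2 fold change was 0.43 ± 0.19 (SE), with an adjusted p of 0.999 in edgeR's quasi-likelihood test. Of the 31 initiation factor genes, 4 had groups that did not overlap, against 8.60% of all genes tested.

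Ribosome assembly factors were split, with 19 of 38 above and 19 below 0 and a median of -0.0030. Rrp9, a component of the particle that processes the small-subunit RNA, was at 21.4, 20.8 and 25 CPM in controls and 17.5, 15.5 and 17.8 CPM in treated libraries, a log2 fold change of -0.41 ± 0.18. Tsr1, which acts late in small-subunit maturation, was at 25.3, 28.1 and 31.8 CPM in controls and 38.6, 34.5 and 34.8 CPM in treated libraries, a log2 fold change of 0.34 ± 0.17. In both genes the groups did not overlap, and neither passed the adjusted threshold. Groups did not overlap in 4 of the 38 assembly factors, against 8.60% of all genes tested.

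Of 17 genes of the mTOR and Larp1 pathway, 10 were above and 7 below 0, with a median of 0.041. Deptor, an inhibitor that binds mTOR, was at 29.5, 21.9 and 20.3 CPM in controls and 40.3, 37.2 and 39.9 CPM in treated libraries. Every treated library exceeded every control, and the log2 fold change of 0.71 ± 0.20 (SE) had an unadjusted p of 0.0067 and an adjusted p of 0.999 in edgeR's quasi-likelihood test. Deptor was the only gene at an unadjusted p under 0.05 in the 8 lists of translation and energy genes, which held from 4 to 81 tested genes each. Over all genes tested, 0.939% were higher and 1.06% lower at that threshold. Groups did not overlap in 2 of the 17 mTOR and Larp1 pathway genes, against 8.60% of all genes tested. Mitochondrial ribosomal protein genes, whose products translate the mitochondrial genome, were above 0 in 47 and below in 30 of 77 genes, with a median of 0.038. Nuclear genes of oxidative phosphorylation were above 0 in 36 and below in 45 of 81, with a median of -0.026. Without cell-treated library 3 these medians were -0.10 and -0.23. No gene of these lists passed the adjusted threshold, as in the test over all genes.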

How the data were processed

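Whole-number read counts per gene were deposited by the authors, with FPKM in a second table. Per the submitters' processing notes, HISAT2 2.0.5, featureCounts and DESeq2 were used, with no settings stated. No source used here names the genome build. Among 54409 identifiers also present in GENCODE M21 (GRCm38), 98.3% had the same start and end, including 83 of the 85 members. The labels' protocols name poly(A) selection and random hexamers and no strand-marking kit, so overlapping and antisense genes can share reads, and reads from grafted human cells were not separated. The deposited FPKM values were used to compare levels between genes and as an alternative scale. A deposited table of group FPKM was not used.

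Counts were filtered with filterByExpr (minimum count 10, minimum total 15) and scaled by TMM. The test was the quasi-likelihood F test (robust) of edgeR 4.0.16 in R 4.3.3, on all 6 libraries with no covariate, Benjamini-Hochberg adjustment over 17042 genes and a threshold of 0.05. The standard error is the log2 fold change over the square root of F. CPM are TMM-scaled. Alternatives used DESeq2 1.42.0, limma 3.58.1 (voom, and log2 FPKM with pseudocounts of 1 and 0.1), other scalings and filters, the replicate block and left-out libraries. The test was also run on simulated counts with planted fold changes. These held no shift of a single library, so they do not show how the test handles one. P-values set the difference between groups against a spread estimated from these libraries.

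The members, the gene lists and the rule for named genes were chosen with earlier results of these data known. The rule takes the 10 members of highest FPKM, the 8 of smallest p in each direction, the stalk proteins, paralogs, the 5 most and 5 least variable, and a list of members with known roles. In each other list the leading genes by p are named. Rpl18, Rps9, Rpl23, Rpl35a, Rps2, Rpl3, Rpl7a, Rpl32, Rpl9, Rps10, Rpl17, Rps12, Rpl35 and Rpl23a were named after their values were seen. Promoters came from RefSeq (GRCm38.p6), and coding sequences are the longest open reading frames of GENCODE M21 transcripts, of which, per gene, the one nearest in length to that of Rps27rt was taken. A few genes taken by these rules or lists, and what rests on them alone, are left unreported.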

Additional observations from a re-analysis of the deposited data

How the results depend on the processing

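The count of ribosomal protein genes past the adjusted threshold was 0 in edgeR with other scaling factors (RLE, upper quartile, library totals, TMM computed without these genes), other filters and protein-coding genes alone, in DESeq2, limma voom and limma on log2(FPKM + 1) and log2(FPKM + 0.1), and with any library left out. The median log2 fold change of the 81 members ran from -0.023 with upper quartile scaling to 0.016 with DESeq2 or RLE factors. Leaving out a library gave from -0.25 to 0.14, and leaving out both libraries numbered 3 gave -0.33 (large-subunit names -0.31, small-subunit names -0.36), a pair chosen with earlier results known. Over these fits the large-subunit median ran from -0.31 to 0.12 and the small-subunit median from -0.36 to 0.17, the lower ends without both libraries numbered 3 and the upper ends without cell-treated library 1. With any single library left out, the difference in share of counts ran from -0.20 (without cell-treated library 3) to 0.13 percentage points (without cell-treated library 1). Same-numbered libraries did not deviate together (Pearson r -0.327, 0.0998 and 0.0552 over 14514 genes), so the numbers were not taken to pair them, and with the replicate block the median was -0.016 with 0 genes called.

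Of 39 named members with a value, 28 changed sign with a single library or both libraries numbered 3 left out. Under another setting 6 changed sign, and none passed the threshold. The count of 28 and the ranges that follow include the fit without both, a pair chosen with earlier results known. Rps15a, for example, was at 0.078 without cell-treated library 3 alone and at -0.0088 without both libraries numbered 3. With libraries left out the log2 fold changes were Rplp1 from -0.48 to 0.064, Rps3a1 from -0.15 to 0.058, Rps15 from -0.53 to 0.12, Rpl4 from -0.13 to 0.12, Rpl19 from -0.39 to 0.32, Rpl8 from -0.34 to 0.13, Rps21 from -0.54 to 0.024, Rps15a from -0.0088 to 0.44, Rps27l from -0.20 to 0.55, Rps27 from -0.14 to 0.78, Rplp0 from -0.48 to 0.63, Rpl15 from -0.067 to 0.32, Rps25 from -0.30 to 0.41, Rps7 from -0.33 to 0.39, Rpl22l1 from -0.19 to 0.33, Rps27rt from -1.62 to 0.31, Rpl27 from -0.78 to 0.36, Rpl31 from -0.66 to 0.22, Rpl22 from -0.086 to 0.066, Rpl27a from -0.17 to 0.082, Rps6 from -0.31 to 0.15, Rpl5 from -0.13 to 0.23, Rpl11 from -0.47 to 0.011, Rpl10 from -0.35 to 0.18, Rpl10a from -0.19 to 0.23, Rps19 from -0.53 to 0.084, Rpl38 from -0.44 to 0.015, Rpl13a from -0.21 to 0.10. Rpl31 was at 0.0025 with RLE factors, 0.0024 with DESeq2, 0.063 with the replicate block, 0.093 with limma voom, 0.11 with log2(FPKM + 1) and 0.11 with log2(FPKM + 0.1). Rpl22 was at -0.016 with upper quartile scaling, -0.00043 with library totals, -0.00045 without a filter, -0.0026 with a minimum count of 50 and -0.0028 with protein-coding genes alone. With RLE factors and DESeq2, Rpl27a was at 0.0081 and 0.0081, Rps6 at 0.011 and 0.011, and Rpl13a at 0.0032 and 0.0034. Rpl10 was at -0.0042 with the replicate block and -0.0027 with limma voom. With 3 libraries per group and cell-treated library 3 apart from the rest, every group mean given here has limited precision.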
